A study of Mus musculus with 6 samples.

Results

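The apolipoprotein genes of the liver are described here in wild-type mice and in mice without ACBP, the acyl-CoA binding protein, which binds acyl-CoA esters in the cell and is encoded by Dbi. The 9 genes Apoa1, Apoa2, Apoa4, Apoa5, Apob, Apoc1, Apoc3, Apoe and Apom were taken by gene symbol from the platform annotation, which gave 9 of the 18194 genes named by a single symbol and 15 of the 45101 probe sets on the array. All 15 were called Present on all 6 arrays, so none was lost to the detection filter, which kept 22482 probe sets for testing. The samples were 3 pools of liver RNA from mice of the genotype ACBP-/- (KO) and 3 from wildtype littermates or controls labelled +/+, all of strain C57BL/6JBomTac and 21 days old, fed until they were removed from the dam. Each pool combined equal amounts of RNA from 5 mice, 15 mice per genotype, so that a pool value is already a mean over mice and the sex of single mice is not given. The sources used here do not say which part of the gene is missing in the knockout or how the line was made.

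Apolipoproteins are the protein part of the particles that carry lipids in plasma. Apob is the structural protein on which the liver builds very-low-density lipoprotein, Apoa1 and Apoa2 are the main proteins of high-density lipoprotein, and Apoe is the ligand through which the liver takes up remnants. Apoc1, Apoc3 and Apoa5 act on the clearance of triglyceride-rich particles, Apoc3 holding it back and Apoa5 favouring it through lipoprotein lipase. Apoa4 is made in the intestine and, in mice, in the liver, where fasting and lipid load raise it, and Apom carries sphingosine-1-phosphate on high-density lipoprotein. Apoa1, Apoc3, Apoa4 and Apoa5 are neighbours in a gene cluster on chromosome 9, and Apoe and Apoc1 are neighbours with Apoc4 and Apoc2 on chromosome 7.

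Apoa4 rose in ACBP knockout liver, by a factor of 1.83 (moderated 95% interval of the limma fit 1.53 to 2.19), while its neighbours in the cluster did not pass the test. To show what lies in front of these neighbours, the 250 bases upstream of the annotated start of Apoa4, Apoa1 and Apoa5 are printed 5′ to 3′ from a RefSeq promoter table of GRCm38.p6, which held sequences for 7 of the 9 genes. It held none for Apoc1 or for the cluster neighbour Apoc3, which were not searched. Capitals mark CAAAGTTCA, a form of the core bound by HNF4 and related nuclear receptors.
Apoa4 (chr9:46240594-46240843, + strand): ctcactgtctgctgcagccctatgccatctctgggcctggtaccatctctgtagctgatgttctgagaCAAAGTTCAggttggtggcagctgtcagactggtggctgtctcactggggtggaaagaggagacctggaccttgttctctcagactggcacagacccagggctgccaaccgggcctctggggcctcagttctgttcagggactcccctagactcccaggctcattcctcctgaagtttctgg
Apoa1 (chr9:46228380-46228629, + strand): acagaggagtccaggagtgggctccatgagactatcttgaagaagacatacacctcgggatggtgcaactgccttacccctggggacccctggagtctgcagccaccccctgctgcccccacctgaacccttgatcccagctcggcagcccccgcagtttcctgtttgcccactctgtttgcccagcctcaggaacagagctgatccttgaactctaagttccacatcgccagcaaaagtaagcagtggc
Apoa5 (chr9:46268358-46268607, + strand): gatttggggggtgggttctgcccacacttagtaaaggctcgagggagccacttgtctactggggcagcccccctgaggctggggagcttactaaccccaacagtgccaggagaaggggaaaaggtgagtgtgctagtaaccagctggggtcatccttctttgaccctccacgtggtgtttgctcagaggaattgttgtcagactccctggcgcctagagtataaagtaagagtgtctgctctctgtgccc
The motif was searched on both strands, as were AGGTCA, the recognition unit of many nuclear receptors, and TGACGT, the core bound by factors of the CREB and ATF family. CAAAGTTCA was in the window of Apoa4, 182 bases before the start, and in 0.335% of 32851 windows of the same length from the whole table. AGGTCA was found in the window of Apoa2 and in 14.0% of all windows. TGACGT was in none of the 7 windows and in 6.47% of all. The 3 motifs do not overlap in these windows, and they were chosen with the promoter of Apoa4 in view, so a match is a description of the letters only. Only exact letters were searched, so a window without a match may still hold such a site in another form.

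Of the apolipoprotein genes, 1 of 9, or 11.1%, passed an adjusted p threshold of 0.05 (limma, adjusted over all 22482 probe sets). Over all 10908 genes, with the brightest probe set standing for each gene (those of the _x_at type only where no other was tested), 7.16% were called, 3.29% as higher and 3.87% as lower in knockout liver, so the count of members called is near the background. Quantile normalization added a call for Apoa1 (0.79 on the log2 scale), because it gives the brightest probe set of every array the same value and that place was held by Dbi in wild type and by Apoa1 in knockout. With each array centred on its median the split over all genes was 516 higher and 303 lower, against 359 and 422 without centring. By probe set, 2 of 15 were called, both of Apoa4, against 5.68% of all tested probe sets. The median log2 fold change, always knockout minus wild type, was -0.01 over the 9 genes and 0.02 over all genes.

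**Figure D1:**
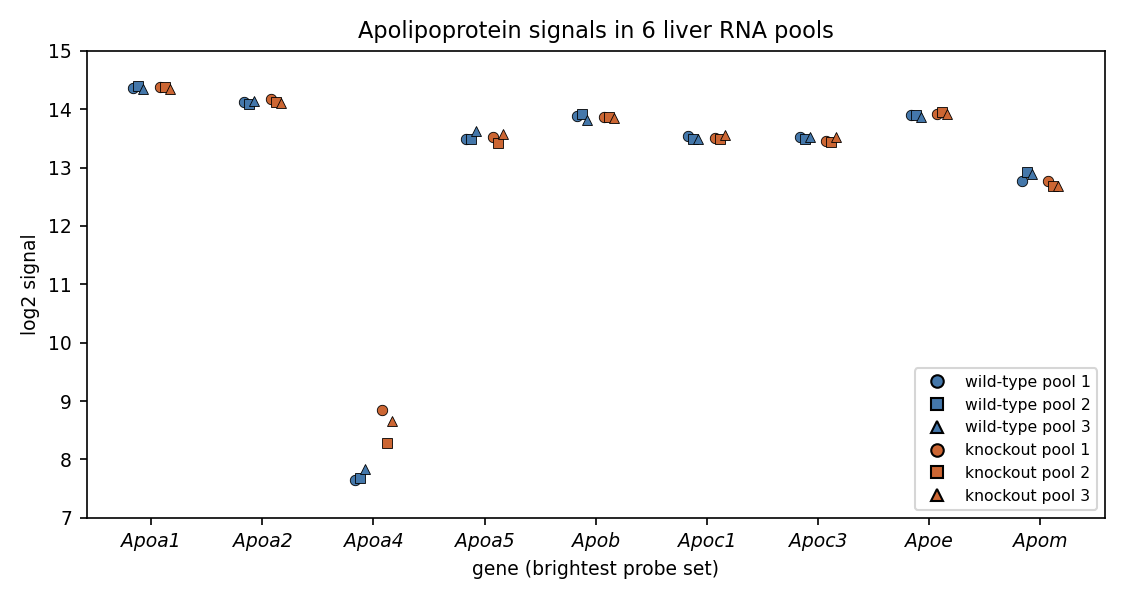
The plot gives the log2 signal of the probe set that stands for each gene (the brightest, _x_at types last) in every pool, wild type in blue and knockout in orange, with the pool number shown by the marker. The groups of Apoa4 lie apart, at 7.65 to 7.84 and 8.29 to 8.84, and those of the high-density lipoprotein gene Apoa1 lie on each other. Signals of different probe sets are not transcript levels on a common scale.

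The main proteins of high-density lipoprotein did not pass the test. The brightest probe set of Apoa1 (1419232_a_at) had log2 signals of 14.37, 14.40 and 14.35 in wild-type pools 1, 2 and 3 and of 14.37, 14.39 and 14.34 in the same order of knockout pools. The groups overlapped, and the log2 fold change was -0.01 (SE 0.03, n = 3 pools per genotype, 95% interval -0.08 to 0.06, adjusted p = 0.946). Its other 3 probe sets, all of the _x_at type that can bind related transcripts, gave log2 fold changes between -0.03 and -0.00369. This probe set ranked 2 on every wild-type array, behind Dbi, and 1 on every knockout array, where the signal of Dbi was far lower. Apoa2 (1417950_a_at) read 14.12, 14.10 and 14.13 in wild type and 14.18, 14.13 and 14.11 in knockout, with overlapping groups (log2 fold change 0.02, SE 0.03, adjusted p = 0.807). Apoa2 lies on chromosome 1, as Dbi does, with 343 protein-coding genes between them, 189 of them tested here.

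Apom, the sphingosine-1-phosphate carrier, read lower in knockout liver at both of its probe sets without passing the test. The brighter probe set (1419095_a_at) read 12.77, 12.92 and 12.88 in wild type and 12.77, 12.68 and 12.69 in knockout. The lowest wild-type pool and the highest knockout pool differed there by only 0.0047. The dimmer probe set (1419096_at) read 12.24, 12.24 and 12.18 against 12.12, 12.05 and 12.04, and its groups lay apart by 0.06. The log2 fold changes were -0.15 (SE 0.05, 95% interval -0.25 to -0.04, adjusted p = 0.105) and -0.15 (SE 0.05, adjusted p = 0.0982), which at the brighter probe set is 9.71% less linear signal. When the probe sets of each gene were averaged before the fit, Apom was called, with a log2 fold change of -0.15 (SE 0.04) and an adjusted p = 0.0474. The dimmer probe set alone was called after quantile normalization (adjusted p = 0.0371). With each array centred on its median the log2 fold changes shrank to -0.09 at both probe sets (adjusted p = 0.387 and 0.394), and without the intensity trend the adjusted p rose to 0.449 and 0.4. An exact permutation test (two-sided) gave p = 0.1 for each probe set, which is the smallest value that 3 pools against 3 allow.

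Apob, the scaffold of very-low-density lipoprotein, did not pass the test at either of its probe sets. Its brighter probe set (1455593_at) read 13.88, 13.91 and 13.82 in wild type and 13.87, 13.87 and 13.85 in knockout, where the knockout pools fell inside the wild-type range. The log2 fold change was -0.01 (SE 0.04, 95% interval -0.09 to 0.07, adjusted p = 0.946). The dimmer probe set (1457554_at) spread more, from 10.37 to 10.69 in wild type and from 10.50 to 10.60 in knockout, and gave 0.05 (SE 0.08, adjusted p = 0.804). Apobec1, the enzyme that edits Apob mRNA to a shorter coding form in mouse liver, had a log2 fold change of 0.06 (SE 0.11, adjusted p = 0.841), and A1cf, its RNA-binding partner, 0.15 (SE 0.10, adjusted p = 0.457). Both are named outside the rule, after their values had been seen. These arrays measure signal of the transcript and not its editing.

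The genes that act on the clearance of triglyceride-rich particles and remnants did not pass the test either. Apoe (1432466_a_at) read 13.90, 13.89 and 13.87 in wild type and 13.91, 13.95 and 13.91 in knockout. Every knockout pool was above every wild-type pool, by 0.00706 at the closest, and the log2 fold change was 0.03 (SE 0.03, adjusted p = 0.672). Groups of pools lay apart for 5 of the 15 apolipoprotein probe sets, those of Apoa4, Apom and Apoe, and for 22.4% of all tested probe sets. Apoc3 (1418278_at) read 13.53, 13.49 and 13.53 against 13.45, 13.44 and 13.53, with overlapping groups (log2 fold change -0.04, SE 0.04, adjusted p = 0.693). Apoa5 (1417610_at) read 13.48, 13.49 and 13.63 against 13.53, 13.42 and 13.57, also overlapping (-0.03, SE 0.05, adjusted p = 0.814). Apoc1 (1417561_at) spanned 13.48 to 13.54 among wild-type pools and 13.48 to 13.56 among knockout pools (0.01, SE 0.04, adjusted p = 0.938).

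**Figure D2:**
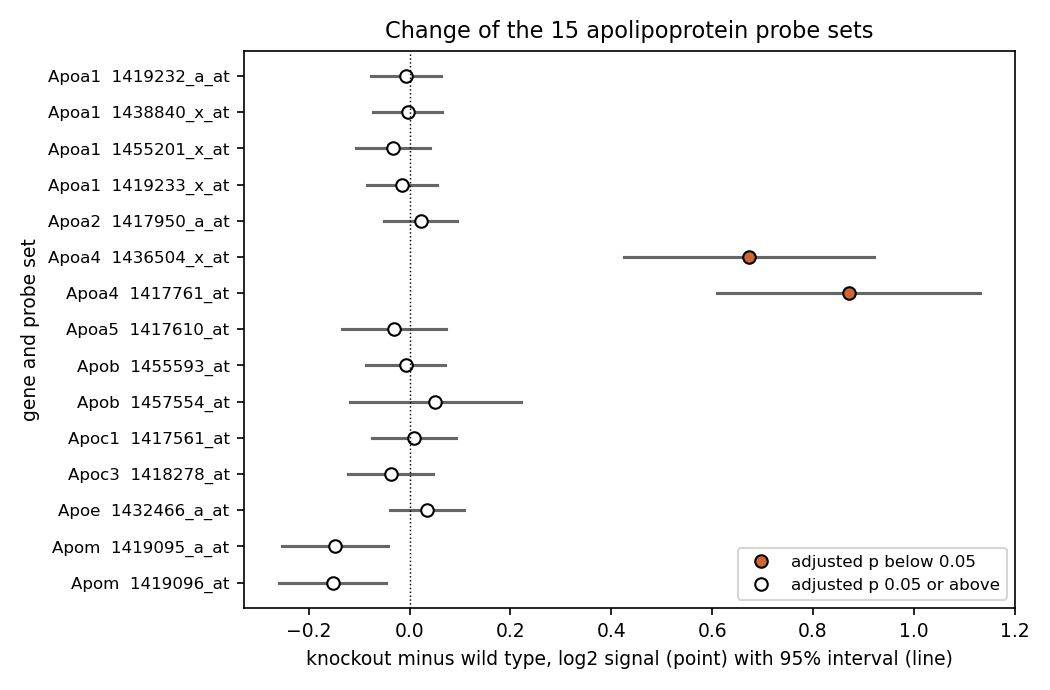
The plot gives the change of each of the 15 probe sets as knockout minus wild type in log2 signal, with its 95% interval as a line and filled points for an adjusted p below 0.05. Both probe sets of Apoa4 are filled, at 0.67 and 0.87, both of Apom lie at -0.15 with intervals below 0, and the intervals of all others include 0.

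For the 7 genes other than Apoa4 and Apom the intervals limit the size of a change at the probe set that stands for each gene. At these 7 probe sets the log2 fold changes lay between -0.04 and 0.03, and the widest 95% limits were -0.13 and 0.11, or factors of 0.912 and 1.08 in linear signal. The dimmer probe set of Apob had a wider interval, from -0.12 to 0.22. These intervals are not adjusted for the number of genes, and they hold for the deposited scaling. With each array centred on its median the log2 fold changes of the 7 probe sets ran from 0.02 in Apoc3 to 0.09 in Apoe. The SD between pools of a genotype ran from 0.00884 to 0.08 for these probe sets. Their signals are among the brightest on the arrays: 10 of the 15 probe sets had a mean log2 signal of at least 13, as 152 tested probe sets did. Of these 152, 11.2% were called changed, among them the probe set of the hepatocyte marker Tdo2, whose log2 fold change was 0.33. Whether such bright signals understate differences was not tested.

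Apoa4 was the gene called among the 9. Its probe set 1417761_at had log2 signals of 7.65, 7.69 and 7.84 in wild-type pools 1, 2 and 3 and of 8.84, 8.29 and 8.67 in knockout pools 1, 2 and 3. The groups lay apart by 0.44, and the knockout pools spread more, with 7.73 ± 0.10 in wild type and 8.60 ± 0.28 in knockout (SD, n = 3 pools). The log2 fold change was 0.87 (SE 0.12, adjusted p = 0.000241). Among the 359 genes called as higher it held rank 27 by fold change, where the median was 0.42.

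The second probe set of Apoa4, 1436504_x_at, read 8.24, 8.39 and 8.41 in wild type and 9.29, 8.74 and 9.04 in knockout. It placed the pools of each genotype in the same order as the first, with knockout pool 1 highest and pool 2 lowest. Its log2 fold change was 0.67 (SE 0.12, adjusted p = 0.00179), 0.20 less than that of the first (exact two-sided permutation p = 0.1 for the difference). Without the intensity trend in the variance it did not pass (adjusted p = 0.0771), while the first still did (adjusted p = 0.0383). In the authors' deposited table the absolute fold of 1417761_at is 1.83, with a p-value of 0.00738 and a corrected p-value of 0.281, and that of 1436504_x_at is 1.59, with a corrected p-value of 0.357. In the authors' deposited table no apolipoprotein probe set has a corrected p-value below the 0.281 of Apoa4.

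**Figure D3:**
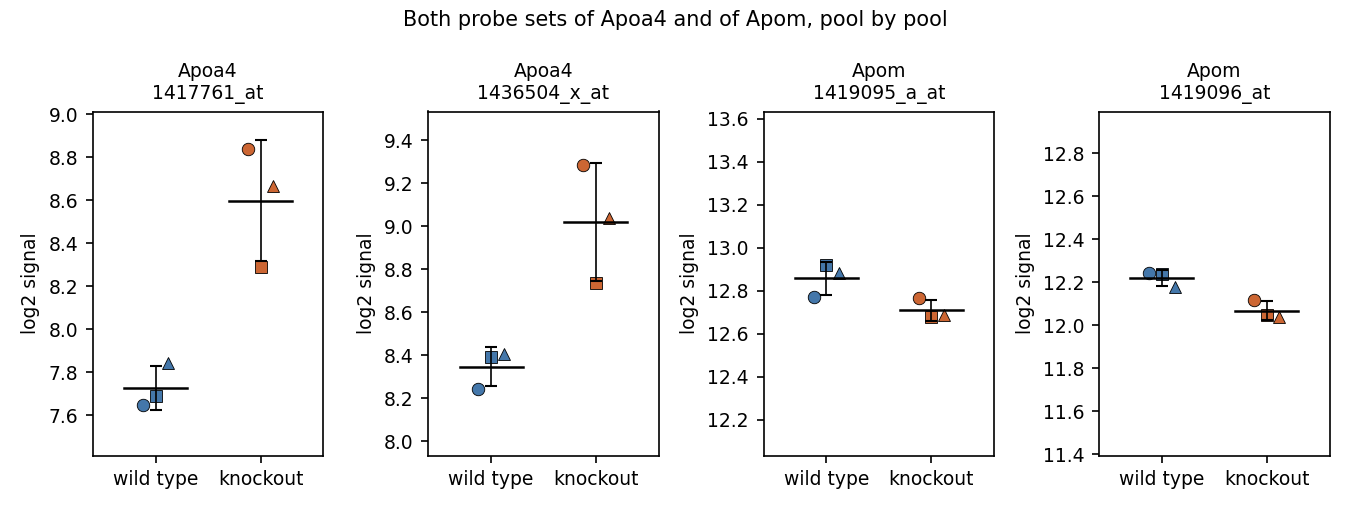
Each panel gives the log2 signal of a probe set in the 3 wild-type and the 3 knockout pools, with circles, squares and triangles for pools 1, 2 and 3, the mean as a bar and the SD as a whisker, over an equal span of log2 signal. Knockout pools of Apoa4 lie above the wild-type pools in both panels, at 8.29 and more and at 8.74 and more, and the shift of Apom is smaller, at -0.15.

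The change of Apoa4 was larger in size than that of every other member. Taken pool by pool, the log2 signal of Apoa4 minus that of the other gene shifted by 0.88 for Apoa1, 0.91 for Apoc3 and 0.90 for Apoa5, and for the other 5 genes by 0.84 in Apoe to 1.02 in Apom. The knockout pools lay above the wild-type pools in each of the 8 differences, and each difference had p = 0.1 in the exact permutation test (two-sided), again the smallest possible. This design cannot reach 0.05 in that test, so the statement rests on the size of the shift. All 8 differences share the Apoa4 values, whose own groups lie apart, so the separation of the pools largely repeats that of Apoa4. Quantile normalization, which moved Apoa1 itself, brought the difference with Apoa1 to 0.06. The other 8 members read far brighter than Apoa4 at the probe sets compared. At tested probe sets with a mean log2 signal of at least 13 the median absolute log2 fold change was 0.05, against 0.12 over all tested probe sets. Whether brightness bears on this comparison was not tested.

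The genes around the chromosome 9 cluster were examined in the order of the RefSeq gene table, 4 to each side. Of the 10 tested, Apoa4 was called as higher and Tagln, a smooth muscle actin-binding protein at the edge of this window, as lower (log2 fold change -0.48, SE 0.11, adjusted p = 0.0133). Sik3, next to Apoa1, had a log2 fold change of 0.01 (SE 0.08), and Zpr1, next to Apoa5, -0.06 (SE 0.11). In the chromosome 7 cluster Apoc4 stood at -0.01 (SE 0.04) beside Apoc1 and Apoe. Apoc2, the activator of lipoprotein lipase in the same cluster, stood at 0.19 (SE 0.06) with separate groups but an adjusted p = 0.0564. The windows were chosen after the values had been seen.

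**Figure D4:**
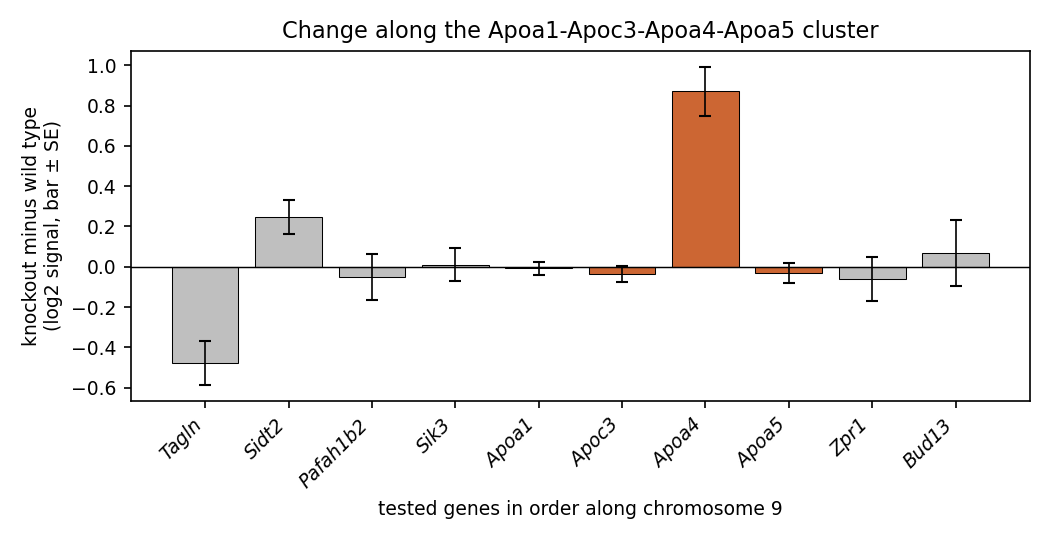
Bars give the change of each tested gene in log2 signal, knockout minus wild type, with its SE, in their order along chromosome 9, and orange marks the apolipoproteins. Apoa4 at 0.87 stands between Apoc3 at -0.04 and Apoa5 at -0.03.

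Knockout pool 1, the highest for Apoa4, also stood apart at the Y-linked genes Eif2s3y and Kdm5d. Eif2s3y read 1.16 there and was called Absent, against 6.97 to 8.69 in the other 5 pools. Without that pool the log2 fold change of Apoa4 was 0.75 (adjusted p = 0.000676) at 1417761_at and 0.54 (adjusted p = 0.00558) at 1436504_x_at. The X-linked gene Xist read 11.04, 9.14 and 11.01 in wild-type pools 1, 2 and 3 and 11.14, 10.03 and 9.04 in knockout pools 1, 2 and 3. Pools of both genotypes thus differed at sex-chromosome genes. Whether the make-up of the pools bears on Apoa4 was not tested. For actin, 3′ over 5′ signal, a measure of RNA and labelling quality, was 2.18 to 2.19 in wild type but 2.34 to 2.35 among knockout pools. Its part in the results was not tested. In Dbi, the targeted gene, the log2 signal of the brightest probe set was 15.74 to 15.94 in wild-type pools and 5.15 to 5.37 in those labelled knockout. Its other 3 probe sets, of the _x_at type, were called Present on all 6 arrays and read lower in knockout by less, with log2 fold changes of -4.08 to -3.91.

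Apoa4 is also a transcript of the small intestine, so markers of that epithelium were read beside it. Of 12 markers 11 were on the array, 4 passed the detection filter and 5 (Cdh17, Cdx1, Lct, Muc2 and Rbp2) were called Present on no array. The summed linear signal of the list ran from 1793 to 2021 in wild type and was higher, at 2244 to 2519, in every knockout pool. The bulk of this sum came from Fabp2, an intestinal fatty acid binding protein, which rose by 0.36 on the log2 scale (SE 0.08, adjusted p = 0.00866). Lgals4, a galectin of the gut, rose by 0.71 (SE 0.13, adjusted p = 0.00348), with 6.33, 6.44 and 6.68 in wild type and 7.46, 7.08 and 7.03 in knockout. The other 2 of the 4 tested markers were not called. Anpep stood at 0.23 (SE 0.10, adjusted p = 0.227) and Alpi, Present on 3 arrays, at 0.23 (SE 0.42, adjusted p = 0.84). The part of these markers in the rise of Apoa4 was not tested.

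In whole-tissue RNA, fewer cells of a type and less RNA per cell cannot be told apart. The hepatocyte list was detected in full, with 2 of 10 markers called as higher and Alb, albumin, at a log2 fold change of -0.00365 (SE 0.03). Its summed linear signal was 124783 to 127202 in wild type, below the 127283 to 129914 of the knockout pools. Of 12 macrophage and Kupffer cell markers, which mark another source of Apoe, 1 was called, Marco, which fell by 0.44 (SE 0.11, adjusted p = 0.0215). The summed signal of that list was 10055 to 11544 in wild type, a range that held the knockout pools at 10493 to 10656. Among endothelial markers 2 of 6 tested fell, and the summed signal went from 4637 to 4764 in wild type down to 4148 to 4286 in knockout. Lyve1 of that list read higher, at 0.21 (SE 0.12), without a call. Among stellate cell and fibroblast markers 2 of 6 fell, with sums of 8870 to 9024 and 7915 to 8511. Pdgfrb, at 0.15 (SE 0.11), and Dcn, at 0.05 (SE 0.05), read higher there and were not called. Called shares were 20% for hepatocyte, 8.33% for macrophage and 33.3% for endothelial and for stellate markers, against 7.16% of all genes. Of the pancreatic acinar list 1 gene was tested, Cela1, which fell by 0.66 (adjusted p = 0.00147). The list summed to 435 to 506 in wild type against 304 to 394 in knockout. Its other 3 genes on the array (Cpa1, Cpb1 and Ctrb1) were called Present on no array. Of the adipocyte list 1 gene was tested, Fabp4, which rose by 0.38 (adjusted p = 0.0142), and the sums were 507 to 583 against 653 to 683. Adipoq, Lep and Retn, the other 3 on the array, were called Present on none, so each of these 2 sums holds 1 tested gene. No marker of the cholangiocyte and erythroid lists was called among the 2 and 3 tested. The part of these shifts in the apolipoprotein values was not tested.

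By the rule for likeness, the genes whose brightest probe set followed Apoa4 most closely over the 6 pools were Ephx1 (Pearson r = 0.998), Slc22a5 (r = 0.995) and Tdrp (r = 0.993). The 6 pools share the genotype difference, so these values describe a likeness of pattern and carry no p. Ephx1, the microsomal epoxide hydrolase, read 11.44, 11.46 and 11.54 in wild type and 12.09, 11.80 and 11.95 in knockout. Like Apoa4 it was highest in knockout pool 1 and lowest of the knockout pools in pool 2. Slc22a5, the carnitine transporter of the plasma membrane, rose by 0.53 (SE 0.10, adjusted p = 0.00383), and Tdrp by 0.37 (SE 0.10, adjusted p = 0.0443). Genes picked for likeness to a called gene share much of its pool order and its direction by that choice.

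The wider set of lipoprotein genes was read from 5 lists with 94 genes in all, of which 82 were tested. Of these, 13 rose and 3 fell, 19.5% in all against the 7.16% of all genes, and the median log2 fold change was 0.10 against 0.02. The lists share Sort1 and Pon1 between them, and they were drawn up with earlier results of these data known. Only 4 of the 16 calls, those of Ppara, Sar1b, Srebf1 and Srebf2, held with each of the 6 pools left out in turn.

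Among other apolipoproteins and editing factors, 3 of 15 tested genes (20%, against 7.16% of all genes called) rose and none fell, with a median of 0.15. Saa4, a constitutive apolipoprotein of high-density lipoprotein, read 11.32, 11.37 and 11.37 in wild type and 11.57, 11.61 and 11.71 in knockout, a rise of 0.27 (SE 0.06, adjusted p = 0.0086). Its second probe set gave 0.16 (adjusted p = 0.227), and the call was lost without wild-type pool 1. Saa1 and Saa2, named outside the rule, had the largest changes of the list but overlapping groups. They stood at 0.65 (SE 0.20, adjusted p = 0.076) and 0.61 (SE 0.21, adjusted p = 0.111), and 1 of 2 tested Saa1 probe sets was called. Saa1 was called with median centring, the pool number as a block, averaged probe sets, and without knockout pool 3. Clu, also called apolipoprotein J, rose by 0.23 (SE 0.05, adjusted p = 0.0108), with 3 of its 4 tested probe sets called. Apon rose by 0.27 (SE 0.06, adjusted p = 0.0121). Apoh, the beta-2-glycoprotein of plasma, and the paraoxonase Pon1 had log2 fold changes of -0.01 (SE 0.04) and -0.04 (SE 0.04). Apof, an inhibitor of lipid transfer in human plasma, stood at -0.14 (SE 0.04, adjusted p = 0.0591).

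Of 17 tested genes of lipoprotein assembly and secretion, 1 rose and 1 fell, with a median of 0.06. That is 11.8% called, against 7.16% of all genes. Sar1b, the GTPase of the vesicles that carry large lipoproteins out of the endoplasmic reticulum, read 12.07, 12.06 and 12.05 in wild type and 12.35, 12.42 and 12.31 in knockout. It rose by 0.30 (SE 0.05, adjusted p = 0.00115). Sort1, a sorting receptor that binds Apob, fell by 0.35 (SE 0.10, adjusted p = 0.0424), and its other 2 tested probe sets, at -0.14 and -0.46, were not called. Mttp, the microsomal transfer protein that loads lipid onto Apob, had a log2 fold change of 0.10 (SE 0.07, adjusted p = 0.514), and is named outside the rule. P4hb, its partner subunit, stood at -0.11 (SE 0.05), Dgat2 at 0.06 (SE 0.05) and Cideb at 0.01 (SE 0.06).

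Receptors and clearance genes rose in 3 of 13 cases and fell in 1, Sort1 again, with a median of -0.07 and 30.8% called (7.16% of all genes). Vldlr, the very-low-density lipoprotein receptor, had a low signal of 5.24, 5.28 and 5.40 in wild type and 6.85, 6.20 and 5.65 in knockout, where the pools spread widely. It rose by 0.93 (SE 0.22, adjusted p = 0.0155), and 3 of its 5 tested probe sets were called. The call was lost without knockout pool 1, at 0.62 (adjusted p = 0.0558), and without wild-type pool 1, at 0.89 (adjusted p = 0.0506). Scarb1, the receptor for high-density lipoprotein, rose by 0.23 (SE 0.06, adjusted p = 0.0481), with all 3 probe sets called, and Sdc1, a heparan sulfate proteoglycan that takes up remnants, by 0.26 (SE 0.06, adjusted p = 0.022). Sdc1 was called at 2 of its 4 tested probe sets, and its call was lost with 3 of the 6 pools left out in turn. Lrp1 stood at 0.10 (SE 0.07), Stab2 at -0.13 (SE 0.08) and Lsr at -0.20 (SE 0.08).

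Of 15 plasma lipases and remodelling proteins 1 fell and none rose, with a median of 0.13. The share called, 6.67%, is near the 7.16% of all genes. Lpl, lipoprotein lipase, read 12.81, 12.65 and 12.69 in wild type and 12.52, 12.49 and 12.07 in knockout, a fall of 0.36 on the log2 scale (SE 0.09, adjusted p = 0.0224). Knockout pool 3 was the lowest, and without it the log2 fold change was -0.21 (adjusted p = 0.0247). Without wild-type pool 1 the call was lost, at -0.31 (adjusted p = 0.0955). The second probe set of Lpl gave -0.34 (adjusted p = 0.14). Lcat, which esterifies cholesterol on high-density lipoprotein, stood at 0.13 (SE 0.06) and the lipid exporter Abca1 at 0.20 (SE 0.06, adjusted p = 0.0887).

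Factors known to act on apolipoprotein genes rose in 6 of 24 cases and fell in 1, with a median of 0.11 and 29.2% called (7.16% of all genes). Creb3l3, a liver transcription factor that activates Apoa4 in mice, read 11.08, 11.11 and 11.05 in wild type and 11.27, 11.26 and 11.37 in knockout. It rose by 0.22 (SE 0.06, adjusted p = 0.0379), a call that was lost with any pool but knockout pool 3 left out, as were those of Nr1h4, Scarb1 and Sort1. Hnf4a, a main activator of the chromosome 9 cluster, stood at 0.14 (SE 0.05, adjusted p = 0.151). Ppara, the fatty acid receptor, rose by 0.39 (SE 0.08, adjusted p = 0.006), with all 3 probe sets called. Esrra rose by 0.48 (SE 0.11), Prox1 by 0.56 (SE 0.15), Srebf1 by 0.44 (SE 0.08) and the bile acid receptor Nr1h4 by 0.30 (SE 0.08). Esrra was called at 1 of 2 tested probe sets and Prox1 at 2 of 3. The call of Esrra was lost with 1 of the 6 pools left out in turn, and that of Prox1 with 3. Srebf2, the regulator of sterol synthesis, fell by 1.07 (SE 0.13, adjusted p = 3.09e-05). Xbp1 stood at -0.08 (SE 0.07) and Cebpa at 0.10 (SE 0.07).

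**Figure D5:**
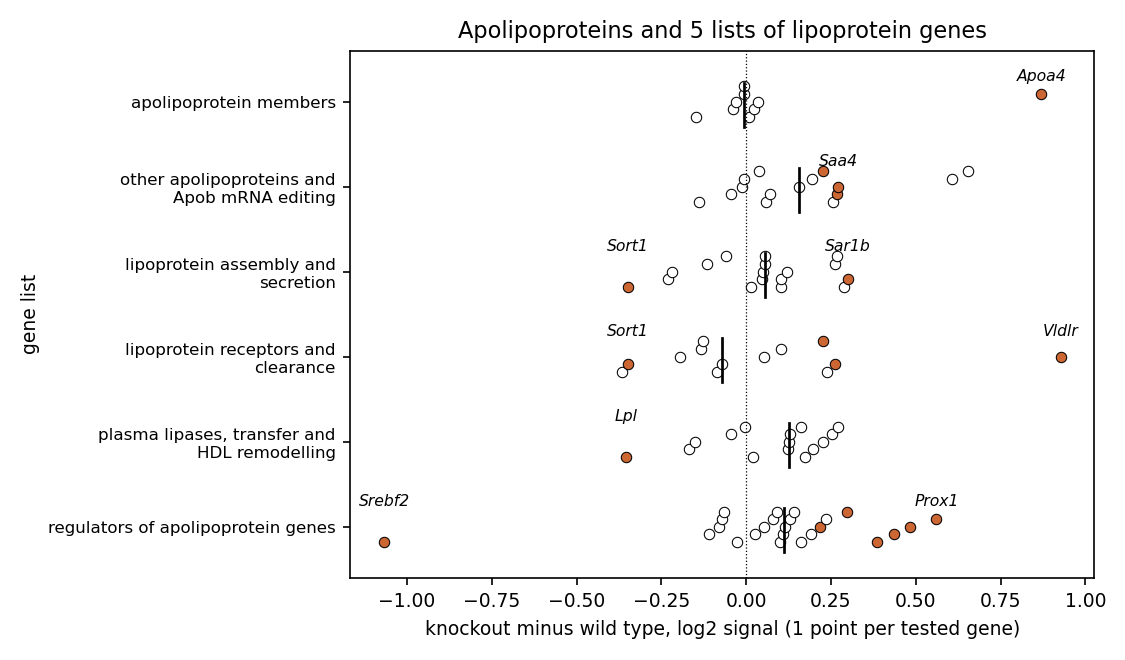
Each point is a tested gene, placed by its change in log2 signal, knockout minus wild type, with filled points for an adjusted p below 0.05 and a bar at the median of each list. Most apolipoproteins cluster at 0 with Apoa4 at 0.87, Vldlr lies at 0.93 and Srebf2 at -1.07.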

How the data were processed

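Liver RNA of 6 pools, 3 per genotype, was hybridised to Affymetrix arrays after biotin labelling, per the labels' protocols. The deposited workbook holds log2 signals and detection p-values and calls for 45101 probe sets. The submitters' processing notes name MAS5 for the signals, without version or settings. The log2 values were used as deposited, and a deposited series matrix differed from them by at most 4.91e-07. From the authors' deposited table come an absolute fold (a ratio), a p-value and a corrected p-value per probe set, whose test no source used here names. The 6 columns of used probe numbers were left out.

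After removal of 64 control probe sets, the test was run on those with a Present call on 3 or more of the 6 arrays. The fit used limma 3.58.1 in R 4.3.3, knockout minus wild type, with an intensity trend and Benjamini-Hochberg adjustment over all probe sets tested. The brightest tested probe set stood for a gene, with _x_at probe sets last. Of all probe sets, 34958 had 1 symbol in the platform annotation, 932 had several and 9211 had none, and the Entrez numbers of all 9 members matched RefSeq. The number of arrays limits the precision. The fit was tested on simulated data.

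Named were all members, Dbi, called genes of the 5 lists (up to 8 each, by smallest p), the 3 brightest uncalled genes of each list, and the 3 genes most like each called member. The members and lists were chosen with earlier results of these data known. Over all tested probe sets, pools with the same number did not deviate together (correlations -0.03, -0.00776 and -0.08), and the main fit used no pairing. These correlations cannot exclude that pools of the same number were handled together. Alternatives were no filter, Present on all arrays, a pseudocount of 16, quantile normalization, median centring, no trend, the pool number as a block, averaged probe sets and each pool left out.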

Additional observations from a re-analysis of the deposited data

How the results depend on the processing

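The rise of Apoa4 at 1417761_at kept its direction and its call in all 14 alternatives run for it, with log2 fold changes of 0.75 to 1.03. Of the apolipoprotein genes, 1 was called in 13 of 15 alternatives, with each pool left out in turn among them, and 2 after quantile normalization and with averaged probe sets. In the former the added gene was Apoa1, at 0.79 (adjusted p = 6.77e-08) for 1419232_a_at, in the latter Apom. Quantile normalization gives the brightest probe set of every array the same value, and that was Dbi in wild type and Apoa1 in knockout. With the probe sets of Dbi left out of it, an alternative chosen after seeing the data, that of Apoa1 was at 0 and 1 gene was called. Changes of members that were not called turned sign near 0, in directions that carry no call. With quantile normalization they were 0.013, 0.064 and 0.00349 for the other probe sets of Apoa1 and -0.00163 for Apoc1, and without Dbi 0.017 for 1438840_x_at of Apoa1 and -0.00748 for Apoc1. With median centring they were 0.052, 0.044, 0.055 and 0.026 for Apoa1, 0.029 for Apoa5, 0.021 for Apoc3 and 0.051 for Apob. With a pool left out they ran from -0.017 to 0.00699 for 1419232_a_at and from -0.0090 to 0.0047 for 1438840_x_at of Apoa1, from -0.033 to 0.013 for 1455593_at and -0.018 to 0.14 for 1457554_at of Apob, from -0.012 to 0.027 for Apoc1 and from -0.061 to 0.018 for Apoa5.

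The 1277 probe sets called overall became 378 without the intensity trend and ran from 643 without wild-type pool 1 to 2981 without knockout pool 3. The 16 genes called in the 5 lipoprotein lists became 7 without a filter and 1, Srebf2, without the trend, and ran from 6 to 27 with a pool left out: 6 without wild-type pool 1, 10 and 9 without knockout pools 1 and 2, and 27 without knockout pool 3. The cause of these shifts was not tested. With the pool number as a replicate block, 1370 probe sets, 1 apolipoprotein gene and 17 list genes were called, 13 of the latter among the 16. The median SE was 0.12 over all tested probe sets and 0.04 over the 152 with a mean log2 signal of at least 13, so changes of dim probe sets such as those of Vldlr are less precise than those of most apolipoproteins.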
